A study of Mus musculus with 8 samples.

Results

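Expression of 10 interferon-inducible GTPase genes, Tgtp1, Tgtp2, Iigp1, Irgm1, Igtp, Gbp2, Gbp3, Gbp4, Gbp6 and Gbp7, was read from RNA sequencing of mouse haematopoietic stem cells of the long-term kind (LT-HSCs). The genes were picked by symbol from a table of 24421 genes, and all 10 were in the table and passed the filter on low counts, which 15917 genes passed in all. LT-HSCs are the rare bone marrow cells that can rebuild the blood for a long time. They were sorted as lineage-negative cells carrying CD117 and Sca1, with much CD150 and little CD48, and were then split by a green fluorescent reporter of Vwf, the gene of von Willebrand factor, into a Vwf+ fraction, which the submitters call megakaryocyte-biased, and a Vwf- fraction. Each fraction came from wild-type (WT) mice and from mice heterozygous for Dnmt3a, the gene of a de novo DNA methyltransferase (Dnmt3a+/-), all aged 10 to 12 months. The 4 groups held 2 libraries each, 1 from male and 1 from female mice, and every library was made from a pool of 3 to 4 animals. The labels give no induction, no Dnmt3a allele and no promoter driving a deletion, and all groups share the Vwf reporter sort. Nor do the labels say whether the Vwf+ and the Vwf- library of 1 genotype and sex came from the same animals.

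Interferons are secreted signals of infection and inflammation. Their receptors act through JAK kinases and STAT proteins, which raise a large set of genes, and interferon gamma in particular raises GTPases that load onto the membranes of vacuoles holding microbes and help to break them. In one family, the immunity-related GTPases, Tgtp1, Tgtp2, Iigp1 and others bind the vacuole, while Irgm1 and Igtp (also called Irgm3) keep them off the membranes of the cell itself. The guanylate-binding proteins (Gbp genes) form the other family. In haematopoietic stem cells interferon can drive quiescent cells into division, and Irgm1 is known for holding that response in check.

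On GRCm38 with the GENCODE M21 annotation, the immunity-related genes Irgm1 (chr11:48861968-48871683), Tgtp1 (chr11:48985327-48994172), Tgtp2 (chr11:49057194-49064206) and Igtp (chr11:58199556-58207591) were on 1 chromosome, apart from Iigp1. The guanylate-binding genes formed 2 clusters, with Gbp7 (chr3:142530342-142550149), Gbp3 (chr3:142560026-142573209) and Gbp2 (chr3:142620602-142638008) in one, and Gbp4 (chr5:105115767-105139586) and Gbp6 (chr5:105270702-105293698) in the other. All 10 are protein-coding genes. Several have near-identical copies. Of the 75-base stretches of their annotated transcripts, 74.6% of those in Tgtp1 also occurred in Tgtp2, and 67.3% of those in Gbp6 occurred in another gene, chiefly Gm43302 and Gbp10. For Iigp1 and Irgm1 none was shared, and for Gbp2, Gbp3 and Gbp4 at most 3.08%. The values of Tgtp1, Tgtp2 and Gbp6 are therefore uncertain in how reads were divided among copies.

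Promoter sequence of RefSeq (GRCm38.p6, from 250 bases before to 50 after each start site) was matched by symbol for 7 of the 10 genes; Iigp1, Gbp4 and Gbp6 were not analysed here. The windows were searched on both strands for the core of the interferon-stimulated response element (ISRE), which is GAAA, any 2 bases and GAAA again, and for the core of the gamma-activated site (GAS), spelled TTCNNNGAA. The 2 motifs may overlap each other. The 7 stretches of 30 bases below are shown because each holds the ISRE core, and the like order of GAS and ISRE cores in Tgtp1, Tgtp2 and Igtp can be read from them. They are written 5′ to 3′ along the gene, with matches in capitals and an ISRE core on the opposite strand read as TTTC, any 2 bases and TTTC.
Tgtp2: catTTCCAGGAAtcGAAACCGAAAcctact
Tgtp1: catTTCCAGGAAtcGAAACTGAAAcctacc
Igtp: catTTCTAGGAActGAAACTGAAAgctgtt
Irgm1: ctagcctgtttcaaGAAATAGAAACCGAAA
Gbp2: aggaactcttttagTTTCACTTTCactgtc
Gbp3: atgtcaggacacagTTTCAGTTTCTATTTC
Gbp7: gcctgtgtgtgcagTTTCAGTTTCagttct

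The 7 genes had 8 windows, and 7 of these held the ISRE core, against 3.44% of 32851 RefSeq windows of the same length. The second Gbp3 window had no match. Windows of 4 genes (Tgtp1, Tgtp2, Igtp and Gbp7) held the GAS core, against 8.3%. In Tgtp1, Tgtp2 and Igtp the GAS core stood directly upstream of the ISRE core, at positions -88, -81 and -45 from the start site, with the ISRE core at -77, -70 and -34. Irgm1 and Gbp3 had a pair of overlapping ISRE cores. A match is a description of the letters and not evidence of binding. Genomic positions of the stretches of Tgtp2 and Tgtp1 were chr11:49064267-49064296 and chr11:48992308-48992337 on the minus strand. The 250 bases upstream of the start are given below for Tgtp2 (chr11:49064213-49064462, minus strand) and Igtp (chr11:58199306-58199555, plus strand), both lower in female Dnmt3a+/- pools, and for Gbp7 (chr3:142530086-142530335, plus strand), which did not pass the test there. Capitals mark ISRE and GAS cores.
Tgtp2 promoter: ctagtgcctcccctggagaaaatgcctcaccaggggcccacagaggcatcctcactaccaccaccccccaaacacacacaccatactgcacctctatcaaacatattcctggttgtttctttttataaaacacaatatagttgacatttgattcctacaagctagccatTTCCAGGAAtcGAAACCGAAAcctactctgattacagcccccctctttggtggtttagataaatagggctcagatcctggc
Igtp promoter: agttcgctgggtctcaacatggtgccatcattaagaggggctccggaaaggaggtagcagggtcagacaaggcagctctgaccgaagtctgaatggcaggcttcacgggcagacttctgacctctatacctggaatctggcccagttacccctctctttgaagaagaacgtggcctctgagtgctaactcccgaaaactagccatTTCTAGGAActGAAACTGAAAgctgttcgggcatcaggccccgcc
Gbp7 promoter: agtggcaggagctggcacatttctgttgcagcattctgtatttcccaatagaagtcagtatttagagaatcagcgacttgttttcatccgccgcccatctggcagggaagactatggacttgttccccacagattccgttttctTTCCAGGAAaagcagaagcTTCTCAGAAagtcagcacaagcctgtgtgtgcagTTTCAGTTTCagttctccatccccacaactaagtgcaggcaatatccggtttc

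Library totals ran from 21809278 to 39402418 counts, and the 10 genes had 317 to 8873 counts in every library. All 13 genes of an LT-HSC marker list were detected. The list includes Cd48, of which the sorted cells have little, and which was at 0.0861 to 3.19 CPM (counts scaled to the library total). Vwf itself was at 1030 to 1410 CPM in Vwf+ and 98.9 to 116 in Vwf- libraries. The gene total of Dnmt3a was not lower in the libraries labelled Dnmt3a+/-: it was 179 and 279 CPM (male, female) against 175 and 203 in WT Vwf+ cells, and 361 and 275 against 251 and 202 in Vwf- cells. The deleted part is not named in the labels, so this total does not check the genotype, and genotypes are given throughout as labelled. T and NK cell markers, whose cells are a usual source of interferon gamma, summed to 3.14 to 12 CPM, with 2 of 10 above the filter. In bulk libraries fewer expressing cells and less RNA per cell cannot be told apart.

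All 10 genes were expressed in every group. Per length, as the mean of the length-corrected TPM values over the 8 libraries, Tgtp2 led with 146. That was above 96.7% of all 24421 genes, including those that did not pass the filter. It was followed by Gbp2 (82.7), Igtp (78.3), Irgm1 (72.4), Gbp7 (62.1), Tgtp1 (59.9), Iigp1 (51.4) and Gbp3 (49.2), and Gbp6 (20.2) and Gbp4 (16.1) were lowest. Tgtp2 was the highest of the 10 in each of the 8 libraries, at 1.22 to 2.27 times the next gene. The genes between Gbp2 and Gbp3 had overlapping TPM ranges with their neighbours in the order, as did Gbp6 and Gbp4. The spread over libraries was widest for Gbp4 and Gbp6, whose highest library was 6.67 and 4.62 times the lowest in CPM, against 2.43 times for Iigp1, 2.2 for Tgtp1 and 1.39 to 1.94 for the other 6.

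**Figure D1:**
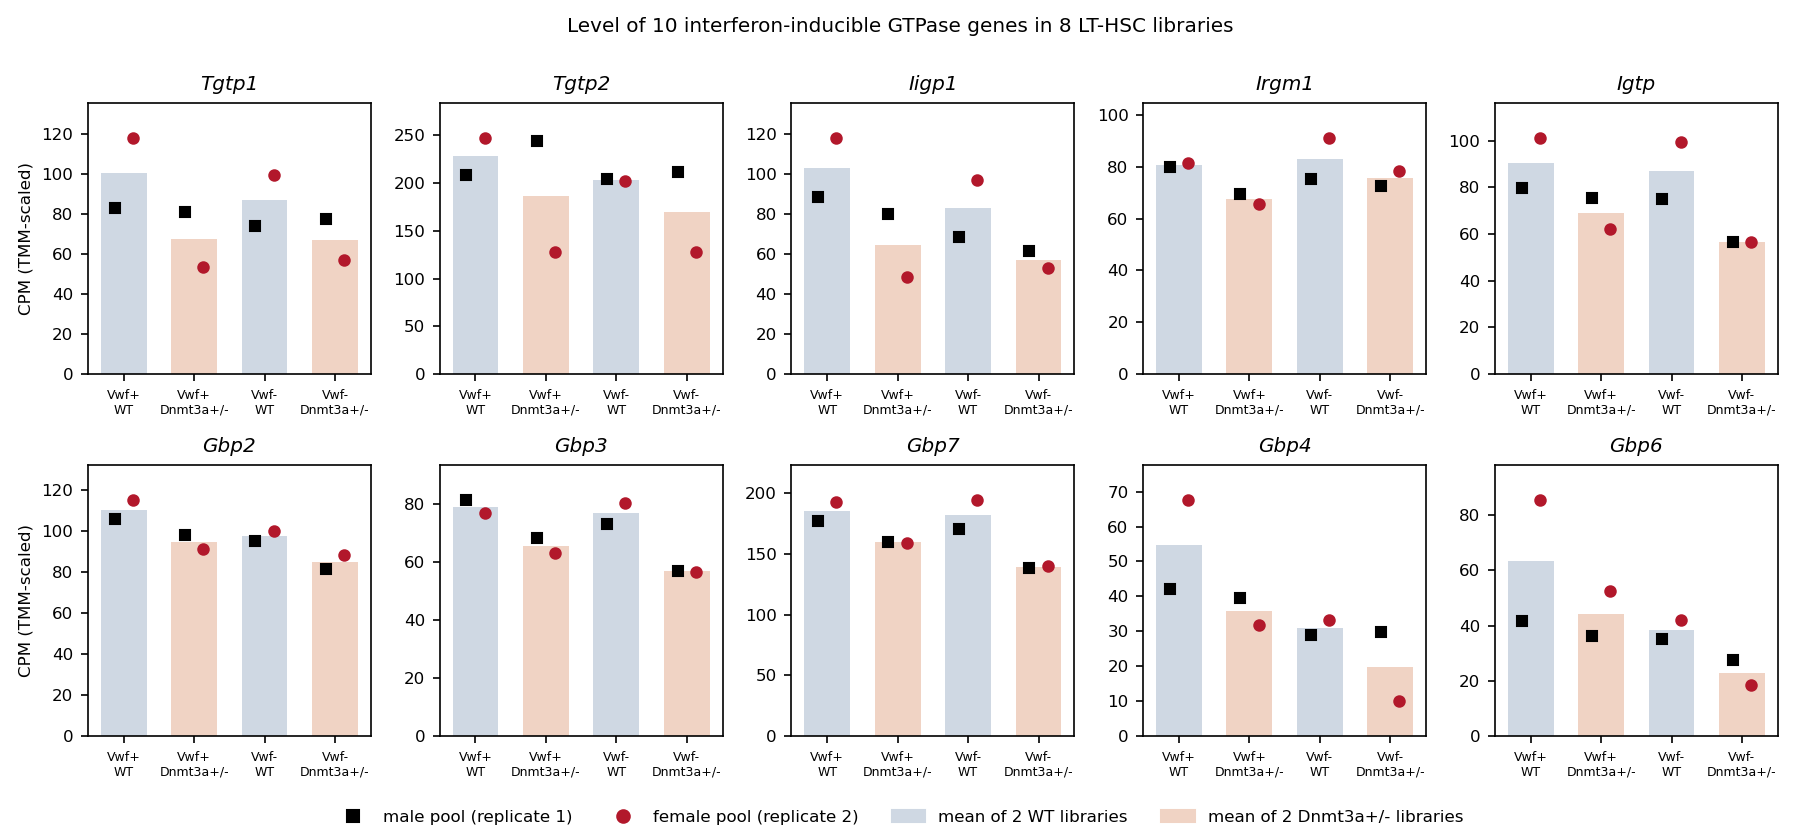
Level of each gene in CPM after TMM scaling, on axes that start at 0, for the 4 groups of 2 libraries. Squares are male and circles female pools, and bars are the mean of the 2. The female Dnmt3a+/- pools are low for Tgtp1, Tgtp2 and Iigp1, and for Gbp4 and Gbp6 the Vwf+ bar is taller than the Vwf- bar in each genotype.

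The comparison of Dnmt3a+/- with WT cells asked whether the loss of 1 Dnmt3a copy goes with another level of these genes. All 10 had a lower mean in Dnmt3a+/- libraries when averaged over the Vwf fractions, with a median log2 difference of -0.41 (range -0.63 to -0.20, median of all tested genes 0.01), while 48.3% of all tested genes had a negative difference. None passed at an adjusted p of 0.05 in edgeR's quasi-likelihood test over all genes, and neither did any other gene (0% called). At an unadjusted p under 0.05 were 7 of the 10, against 3.24% of all genes. The members are correlated and were listed with earlier results known, so the shared sign is a description.

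Among the effector GTPases, Iigp1 (chr18:60376027-60392634) was at 88.4 and 118 CPM (male, female) in Vwf+ WT libraries and at 80.3 and 48.7 in Vwf+ Dnmt3a+/- libraries. In Vwf- cells it was at 68.6 and 97.3 in WT and at 61.7 and 53.0 in Dnmt3a+/-. The female Dnmt3a+/- libraries were the lowest of the 8, and male values of the genotypes lay close together. The log2 difference was -0.61 ± 0.18 (SE, adjusted p = 1, edgeR). Igtp, of the regulatory branch, ranked first of the 10 by p, with a log2 difference of -0.51 ± 0.13 (SE, adjusted p = 1, edgeR). Its CPM in Vwf+ cells was 79.6 and 101 (male, female) in WT and 75.6 and 62.3 in Dnmt3a+/-, and in Vwf- cells 74.8 and 99.2 against 56.4 and 56.4. Only 1 male Dnmt3a+/- library overlapped the WT range.

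Gbp3 and Gbp7 did not overlap between genotypes, where 0.848% of all tested genes had all 4 Dnmt3a+/- libraries below all 4 WT libraries. Gbp3 was at 73.1 to 81.3 CPM in WT and at 56.5 to 68.2 in Dnmt3a+/- libraries, a log2 difference of -0.35 ± 0.10. Gbp7 was at 170 to 194 CPM in WT and 138 to 160 in Dnmt3a+/-, a difference of -0.30 ± 0.10. Both genes were lower in the male and in the female Dnmt3a+/- pools. The other members differed by -0.63 ± 0.23 (Gbp6), -0.62 ± 0.29 (Gbp4), -0.47 ± 0.18 (Tgtp1), -0.28 ± 0.21 (Tgtp2), -0.22 ± 0.10 (Gbp2) and -0.20 ± 0.10 (Irgm1) on the log2 scale.

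Within each fraction the pattern had the same sign. All 10 were lower in Dnmt3a+/- Vwf+ cells (median log2 difference -0.34) and in Vwf- cells (median -0.41), with no member and no gene called in either (0% and 0%). The genotype by Vwf interaction had a median near 0, the smallest unadjusted p was 0.38 (Igtp), and again 0% of genes were called. With replicate number, and so sex, as a block, 9 members had an unadjusted p under 0.05, against 7.15% of all genes. The smallest adjusted p of the members with that block was 0.11 (Igtp, edgeR), with 0.088% of genes called lower. Without the filter on low counts 4 members fell (Gbp4, Gbp6, Igtp and Iigp1), with 0.0877% of genes called lower. With the block 6 fell when the male Vwf+ Dnmt3a+/- library was left out (0.224% of genes) and 6 when the male Vwf+ WT library was (0.656%). With the block and all 8 libraries, Gbp9, a guanylate-binding gene outside the 10, did fall (-0.71 ± 0.12, adjusted p = 0.016, edgeR). Neutrophil markers, led by Mpo and with 0 of 8 absent everywhere, summed to 38.3 to 65.3 CPM in Dnmt3a+/- and 17.9 to 29.9 in WT Vwf- libraries, and to 42.1 to 122 and 53.3 to 97.5 in Vwf+ libraries, where the ranges overlapped. None was called for genotype, and their part in the difference was not tested.

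**Figure D2:**
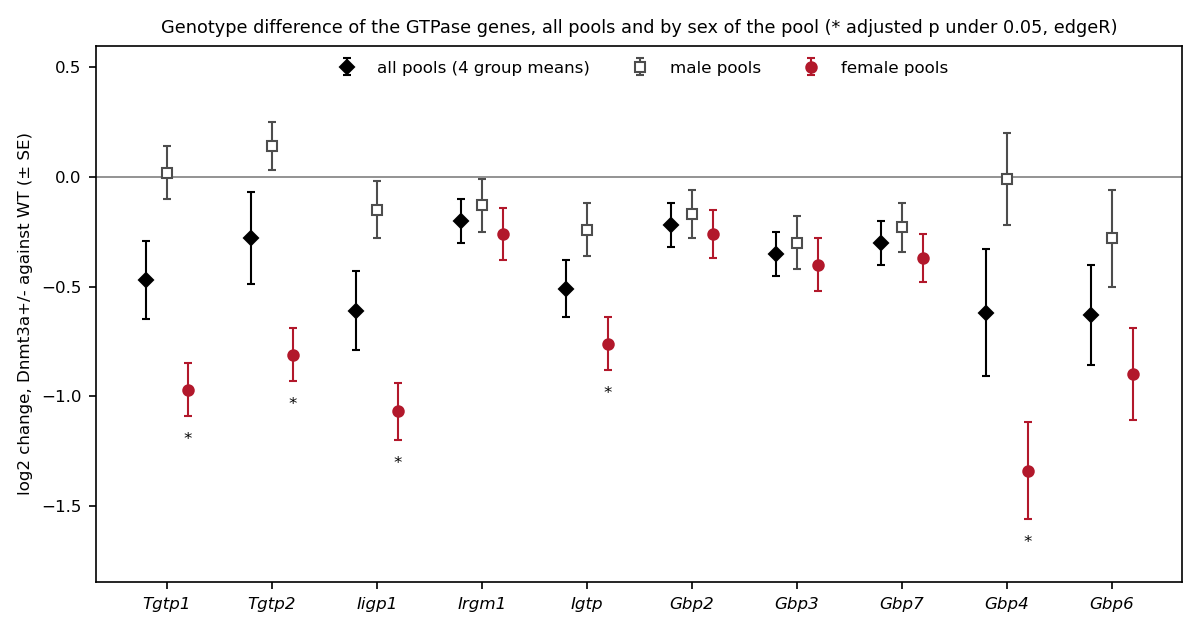
Log2 change of each gene in Dnmt3a+/- against WT libraries with its standard error, over all 4 group means (diamonds), in male pools (open squares) and in female pools (circles). Stars mark an adjusted p under 0.05. All diamonds are below 0, and the female pools reach -1.34 for Gbp4 while the male pools stay between -0.30 and 0.14.

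The library values set the female pools apart, and the genotype difference was therefore also taken within each sex, a comparison added after the values were seen. Female Dnmt3a+/- pools had less Tgtp1, Tgtp2, Iigp1, Igtp and Gbp4 than female WT pools, at ratios of 0.395 (Gbp4) to 0.591 (Igtp). In this fit of 4 genotype-by-sex means plus Vwf status, 5 of 10 members fell (median log2 difference of the 10 -0.78), where 0.151% of all tested genes were called lower. Male pools had no member called (median -0.16), and 0% of all genes were called lower there. In the same female comparison 1 of 13 genes of the LT-HSC marker list fell, Ly6a, the gene of the sort marker Sca1 (-0.88 ± 0.17, adjusted p = 0.032, edgeR). Of 10 endothelial and stromal markers 1 rose, Cxcl12 (1.31 ± 0.24, adjusted p = 0.026, edgeR). Neutrophil markers were higher in 7 of 7 (median 1.33) and monocyte, macrophage and dendritic cell markers in 9 of 11 (median 1.02), none called. The part of these markers in the difference was not tested. Each sex and genotype is represented by 1 pool number, and if its 2 fractions came from the same animals the error covers the spread between fractions and not that between pools.

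Tgtp2 in female pools was at 247 CPM in Vwf+ and 202 in Vwf- WT cells, and at 128 in both Dnmt3a+/- fractions. In male pools it was at 209 and 204 in WT and 244 and 212 in Dnmt3a+/- cells. The Dnmt3a+/- values were thus lower than WT in female pools and higher in male pools. The share of all genes with such an order was not computed. The change was -0.81 ± 0.12 in female pools (adjusted p = 0.0047, edgeR) and 0.14 ± 0.11 in male pools (adjusted p = 0.77).

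Tgtp1, its near copy, was at 118 and 99.6 CPM (Vwf+, Vwf-) in female WT pools and at 53.7 and 57.2 in female Dnmt3a+/- pools. In male pools it was at 82.9 and 74.2 in WT and 81.3 and 77.5 in Dnmt3a+/- cells. Female WT pools were the highest and female Dnmt3a+/- pools the lowest of all libraries, with males of both genotypes between. The change of Tgtp1 in female pools was -0.97 ± 0.12 (adjusted p = 0.001, edgeR). That of the summed Tgtp1 and Tgtp2 counts was -0.86 ± 0.12 (adjusted p = 0.0026, edgeR, 0.145% of genes called lower). The sum leaves out Gm12185, which shares 4.77% of the stretches of Tgtp1. The part of reads shared with that gene was not tested. Iigp1, which shares no stretch with another gene, fell by 1.07 on the log2 scale (SE 0.13, adjusted p = 0.001, edgeR), and Igtp fell by 0.76 (SE 0.12, adjusted p = 0.012).

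Gbp4 was at 67.5 and 33.3 CPM (Vwf+, Vwf-) in female WT and at 31.9 and 10.1 in female Dnmt3a+/- pools, a change of -1.34 ± 0.22 (adjusted p = 0.011, edgeR). Its male values were 42.1 and 28.9 in WT and 39.6 and 29.8 in Dnmt3a+/-. The Vwf- female Dnmt3a+/- library stood lowest of all 8. Gbp6 differed by -0.90 ± 0.21 in female pools (adjusted p = 0.14), Gbp3 by -0.40 ± 0.12, Gbp7 by -0.37 ± 0.11, and Gbp2 and Irgm1 by -0.26 each, none of them called. Without the female Vwf- Dnmt3a+/- library 3 members (Tgtp1, Tgtp2 and Iigp1) were called in female pools (0.0878% of genes called lower), and Gbp4 and Igtp were not. Without the female Vwf+ Dnmt3a+/- library Tgtp2 and Igtp were not called, and Gbp6 was (0.0753% of genes).

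The difference between the sexes in the genotype effect was itself tested. The interaction was -0.99 ± 0.17 for Tgtp1 and -0.95 ± 0.16 for Tgtp2 (adjusted p = 0.066 for each, edgeR), -0.92 ± 0.19 for Iigp1 (adjusted p = 0.15) and -1.33 ± 0.30 for Gbp4 (adjusted p = 0.22). No member passed, and 0.00628% of all genes did. With DESeq2 these 4 passed (adjusted p = 1.9e-05 for Tgtp2, 0.00041 for Tgtp1, 0.0086 for Iigp1 and 0.032 for Gbp4), where 0.163% of genes were called lower. Over all alternatives the adjusted p ran from 1.9e-05 to 0.27 for Tgtp2, from 7.4e-05 to 0.19 for Tgtp1, from 0.00043 to 0.26 for Iigp1 and from 8.2e-07 to 1 for Gbp4. The 10 interactions were all negative, with Gbp2, Gbp3, Irgm1 and Gbp7 between -0.15 and -0.09.

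Female and male pools were also compared within genotype. In Dnmt3a+/- cells 4 members fell in female pools, Tgtp2 (-0.83 ± 0.12, adjusted p = 0.00037), Tgtp1 (-0.52 ± 0.12, 0.0093), Gbp4 (-0.89 ± 0.22, 0.011) and Iigp1 (-0.46 ± 0.13, 0.03, all edgeR), where 6.51% of all genes were called lower. In WT cells all 10 differences were positive and none passed (smallest adjusted p 0.10, Tgtp1), against 0.302% of genes called higher. Averaged over the 4 groups no member passed, although 10.5% of all genes were called in one direction or the other. Leaving out the male Vwf- Dnmt3a+/- library left only Tgtp2 called within Dnmt3a+/- (0.646% of genes called lower), and leaving out the female Vwf+ Dnmt3a+/- library left Tgtp2 and Gbp4 (5.07%). Shares of 2 abundant RNAs moved with sex: Malat1 took 0.974% to 1.97% of counts in male and 0.446% to 0.585% in female libraries, and Rn45s took 9.83% and 11.9% in the female Dnmt3a+/- libraries and 6.08% to 9.19% in the other 6. Their part in these differences was not tested.

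**Figure D3:**
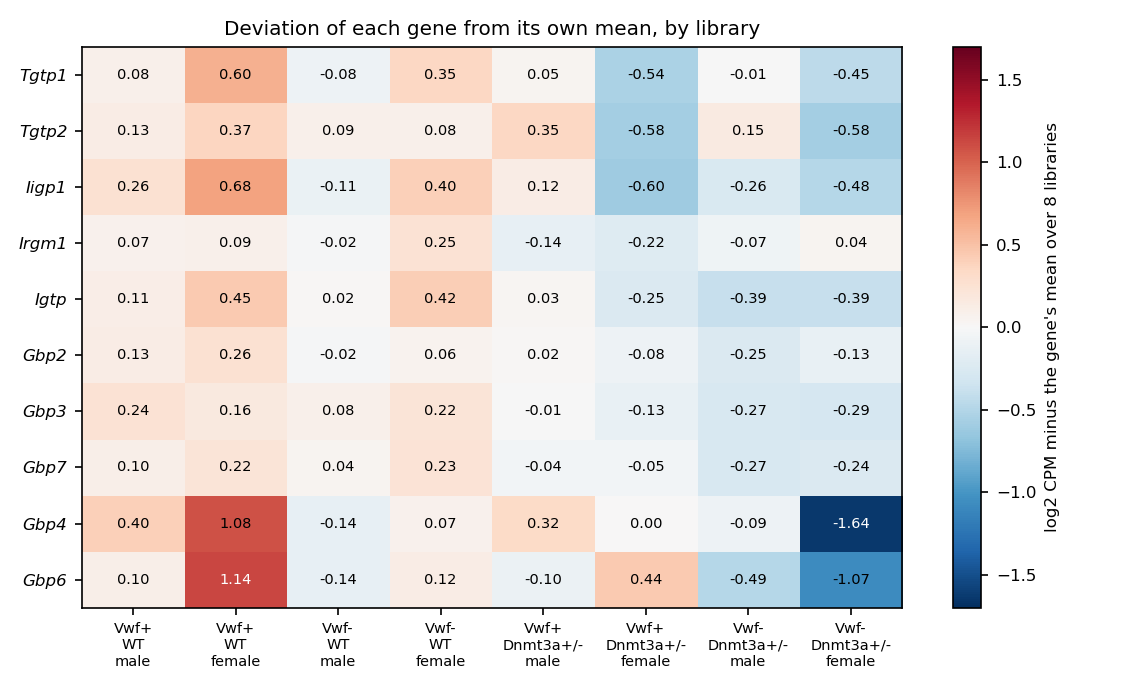
Log2 CPM of each gene minus its own mean over the 8 libraries, with rows for genes and columns for libraries. The female WT columns are positive for every gene, from 0.06 to 1.14, and the female Dnmt3a+/- columns hold the most negative values, down to -1.64 for Gbp4.

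The comparison of Vwf+ with Vwf- cells asked how the megakaryocyte-biased fraction differs. Gbp4 and Gbp6 were higher in Vwf+ cells, by 1.77 and 1.78 times, and the other 8 differed little (log2 differences -0.10 to 0.24). Without the block no member passed in edgeR (Gbp6 0.83 ± 0.23, adjusted p = 0.072, and Gbp4 0.83 ± 0.29, adjusted p = 0.16), against 3.76% of all genes called higher. Replicate number, which equals sex and is not known to mark shared animals, was then added as a block. With that block both rose in edgeR, Gbp6 by 0.78 ± 0.17 (adjusted p = 0.0022) and Gbp4 by 0.85 ± 0.21 (adjusted p = 0.0086), against 7.42% of genes called higher. DESeq2 without the block called the same 2 genes (adjusted p = 0.0074 for Gbp6 and 0.034 for Gbp4), against 5.47% of all genes. Over all alternatives the adjusted p ran from 1.6e-12 to 0.28 for Gbp6 and from 2.2e-13 to 0.47 for Gbp4.

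Gbp6 was at 41.5 and 85.2 CPM (male, female) in Vwf+ and 35.0 and 42.0 in Vwf- WT libraries, and at 36.1 and 52.5 against 27.5 and 18.4 in Dnmt3a+/- libraries. Vwf+ was higher for both genes in each of the 4 pairs of libraries of the same genotype and sex. The ranges of all Vwf+ and all Vwf- libraries overlapped. The log2 differences within the pairs were 0.24 (WT male), 1.02 (WT female), 0.39 (Dnmt3a+/- male) and 1.51 (Dnmt3a+/- female) for Gbp6. For Gbp4 they were 0.54, 1.02, 0.41 and 1.65 in the same order. Both genes thus had the larger gap in the female pairs, a difference that was not tested.

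Within WT cells no member passed, against 1.48% of genes called higher, nor with the block (4.57%), where Gbp6 had an adjusted p of 0.083 and Gbp4 of 0.10. Within Dnmt3a+/- cells none passed without the block (0.892% of genes) and Gbp6 rose with it (0.89 ± 0.24, adjusted p = 0.028, edgeR, 3.52% of genes). When each Vwf+ library was blocked with the Vwf- library of its genotype and number, both genes rose in each genotype. In that fit 6.21% of genes in WT and 4.88% in Dnmt3a+/- cells were called higher. It left 2 residual degrees of freedom. Its SE for Gbp4, averaged over genotype, was 0.12, while the differences within pairs ran from 0.41 to 1.65. Counts of Gbp6 summed with Gbp10 gave 0.86 ± 0.24 without the block (adjusted p = 0.072). Gbp9, a neighbour in the same cluster, rose in Vwf+ cells without the block (0.71 ± 0.15, adjusted p = 0.024, edgeR). Endothelial and stromal markers, led by Pecam1 and with 0 of 10 absent everywhere, summed to 170 to 200 CPM in Vwf+ and 93.8 to 117 in Vwf- libraries, T and NK cell markers to 3.14 to 4.89 and 9.86 to 12, and their part in the difference was not tested.

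**Figure D4:**
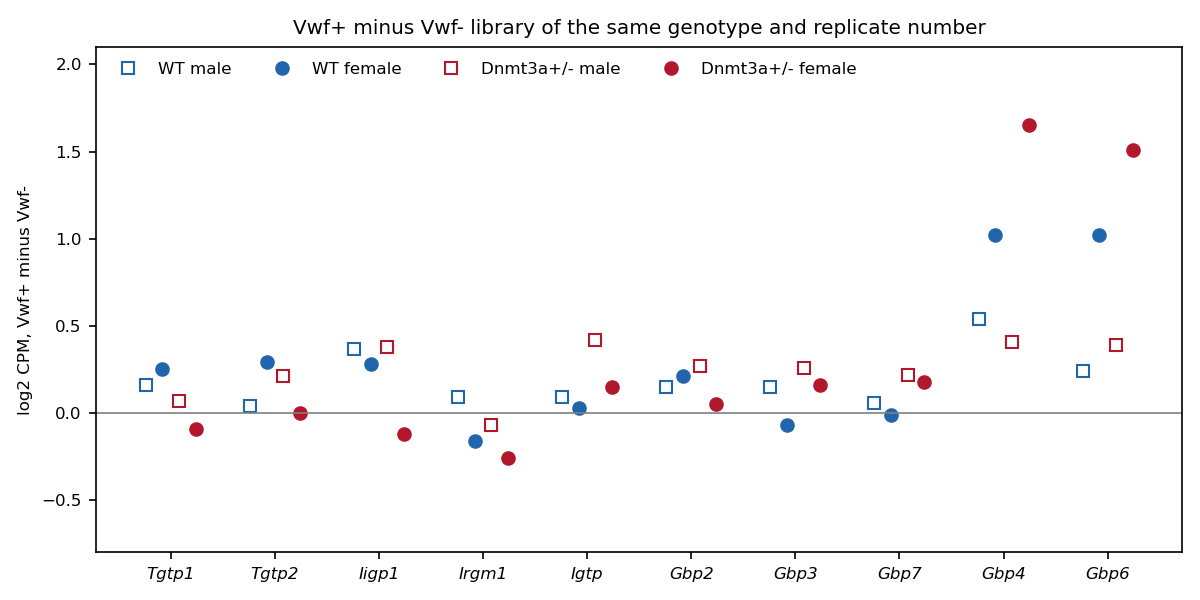
Log2 CPM of the Vwf+ library minus that of its Vwf- counterpart in genotype and number, for each gene. Squares are male and circles female pools, blue is WT and red Dnmt3a+/-. Gbp4 and Gbp6 are above 0 in all 4 pairs, up to 1.65, and the other 8 genes lie between -0.26 and 0.42.

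Other genes of the pathway were taken from lists. Of 20 further interferon-inducible GTPase genes 16 were tested, and 14 of these were lower in Dnmt3a+/- cells averaged over the fractions (median log2 difference -0.25, none called). In female pools 4 fell, Gm12185 (-1.30 ± 0.13, adjusted p = 0.00035), Gm4951 (-0.91 ± 0.17), F830016B08Rik (-0.97 ± 0.18) and Gbp9 (-0.83 ± 0.16, adjusted p = 0.038, edgeR). In male pools none did (median -0.14). Gm12185 shares 4.77% of the stretches of Tgtp1, so part of its count could come from that gene. Irgm2, a further regulatory member, differed by -0.38 ± 0.10 over all pools and was not called.

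RNA of the listed interferon ligands was almost absent from these sorted cells, which does not measure interferon reaching them from other cells. Of 10 interferon ligand genes only Ifnk passed the filter, Ifng had 6 counts over all 8 libraries, and the 10 genes together had 2 to 37 counts in a library. All 19 genes of the receptor and JAK-STAT list were tested and their median genotype difference was -0.05. Among interferon regulatory factors 0 of 11 were called for genotype, as were 0 of 14 antigen processing genes. The same held for 0 of 11 genes of the ATG8 conjugation system, which helps to place these GTPases on membranes. Of all tested genes 0% were called. Lower in Dnmt3a+/- cells were 6 of 11 regulatory factors (median -0.12), 12 of 14 antigen processing genes (-0.18) and 10 of 11 ATG8 genes (-0.1). In female pools 8 of 11 (median -0.17), 14 of 14 (-0.21) and 8 of 11 (-0.11) were lower, none called.

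Of 28 antiviral interferon-stimulated genes 21 were lower in Dnmt3a+/- cells (median -0.20, none called), also in female pools (23 lower, median -0.24, none called). The same list had 5 genes that rose in Vwf+ cells, Ifi44 (0.86 ± 0.14), Rtp4 (0.83 ± 0.16), Ifitm1 (0.82 ± 0.13), Ifit1 (0.73 ± 0.17) and Ifitm3 (0.65 ± 0.11, adjusted p = 0.0063, edgeR), and none that fell, against 3.76% of all genes called higher. Ifnlr1, a receptor of interferon lambda, rose too (3.10 ± 0.60, adjusted p = 0.014) from 0.0319 to 0.751 CPM in Vwf- to 1.08 to 3.19 in Vwf+ libraries. Irf5 (-0.69 ± 0.15), Ciita (-0.86 ± 0.17), the master regulator of class II genes, and Tap2 (-0.48 ± 0.11), a subunit of the peptide transporter, fell.

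The 10 genes varied together across the 8 libraries. The Pearson correlation of log2 CPM was positive in all 45 pairs (median 0.71, range 0.06 to 0.97), and it was lower for pairs with Irgm1 (median 0.57) than for pairs without it (median 0.73). The libraries share genotype, sex and Vwf status, so these values describe the pattern and carry no test. Igtp with Gbp7 and Tgtp1 with Iigp1 were the closest pairs (0.97 each). The mean deviation of the 10 from their own means was highest in the female Vwf+ WT library (0.50) and lowest in the female Vwf- Dnmt3a+/- library (-0.52). Of 10166 other genes with a mean log2 CPM above 3, the 10 most like that mean over 8 libraries were Zbp1 (0.96), Oas1a (0.96), Nuak2 (0.96), Otub1 (0.95), Slc19a2 (0.95), Ppp6c (0.94), Necap1 (0.93), Wash1 (0.92), Ly75 (0.92) and Tmbim4 (0.92). Zbp1 and Oas1a are antiviral genes of the list above, at -0.67 ± 0.15 and -0.65 ± 0.15 in female pools (adjusted p = 0.11 for each, edgeR).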

How the data were processed

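Total RNA of sorted LT-HSCs was sequenced in 8 libraries, 4 groups of 2. The authors deposited a table of raw read counts per gene and a table of TPM values. Per the submitters' processing notes, Trim Galore, STAR, featureCounts and DESeq2 were used with build mm10, and the versions, annotation, strand setting and read length are not given in the sources used here. TPM (deposited) was used for levels between genes, and counts for all tests.

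The members and lists were chosen with earlier results of these data known. All 10 members are named, with the list genes that passed and the most similar genes over the 8 libraries. Counts were fitted with edgeR 4.0.16 in R 4.3.3 (quasi-likelihood, TMM factors 0.958 to 1.06, filterByExpr with a minimum count of 10, 4 group means, 4 residual degrees of freedom, common dispersion 0.0732), with Benjamini-Hochberg adjustment over all 15917 tested genes and a threshold of 0.05. CPM is the count scaled to the library total and that factor, and its log2 uses a prior count of 2. The comparison by sex used 4 genotype-by-sex means plus Vwf status and was added after the values were seen. Each SE was back-calculated from the F statistic. P-values measure the spread between libraries, which for comparisons by sex may be that between fractions of the same animals.

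Same-numbered libraries have the same sex per the labels, and their deviations correlated with r of 0.13 to 0.3 over the 6 group pairs, so a fit with replicate number as a block was run. Alternatives were that block, 4 blocks of genotype by number, RLE size factors, no filter, copies summed, DESeq2 1.42.0, limma 3.58.1 on log2(TPM + 1) and log2(TPM + 0.1), only the libraries compared, and leaving out each library. The fits were tested on simulated data. Motifs were searched in RefSeq promoters. Not every list gene that passed is reported here.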

Additional observations from a re-analysis of the deposited data

Results flagged for a closer look

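The genotype difference of Tgtp2 had opposite signs in the sexes, in both fractions. The log2 CPM difference of Dnmt3a+/- minus WT was 0.23 and 0.06 in the male pools (Vwf+, Vwf-) and -0.95 and -0.66 in the female pools. In male pools the change was small and not called (0.14 ± 0.11, adjusted p = 0.77, edgeR). The interaction of sex with genotype was -0.95 ± 0.16 with an adjusted p of 0.066 (edgeR), which missed the threshold, and 1.9e-05 with DESeq2. Each sex and genotype had 1 pool number.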

How the results depend on the processing

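For the member values with a direction (85, against 45 within 1 SE of 0), 1281 alternative values were computed. Of these 1149 kept direction and side of the threshold, 117 gained the call, 11 lost it and 4 reversed. The reversed values were -0.02 for Iigp1 between Vwf fractions with the replicate block and without the male Vwf+ Dnmt3a+/- library, 0.09 for Gbp6 between genotypes in Vwf+ cells without the female Vwf+ WT library, 0.03 for Igtp between sexes in Dnmt3a+/- cells without the male Vwf+ Dnmt3a+/- library, and 0.10 for Gbp6 between genotypes in male pools without the male Vwf- WT library. Leaving out 1 library gave -0.93 to 0.09, -0.3 to 0.03 and -0.64 to 0.10 for the last 3.

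Members called between Vwf fractions, averaged over genotype, were 0 in the 4-group fit and 2 with the replicate block, with 4 blocks, without a filter and with DESeq2. Leaving out 1 library gave 0 to 2, and 2 to 4 with the block. Within WT cells 0 became 2 with 4 blocks and 2 without a filter. Within Dnmt3a+/- cells 0 became 1 with the replicate block, 2 with 4 blocks and 2 without a filter (0 to 1 leaving out a library). Between genotypes, averaged, 0 became 4 without a filter (Gbp4, Gbp6, Igtp and Iigp1), and with the replicate block 0 members passed with all libraries and 0 to 6 when 1 library was left out (6 without the male Vwf+ Dnmt3a+/- library and 6 without the male Vwf+ WT library).

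Between sexes, averaged, 0 became 1 without a filter (0 to 2 leaving out a library). In WT cells 0 became 1 with DESeq2 and 3 without a filter (0 to 2). In Dnmt3a+/- cells the 4 called became 1 to 4 leaving out a library. The sex by genotype interaction had 0 called, 4 with DESeq2 and 4 without a filter (0 to 4). In female pools the 5 called became 3 to 6, and in male pools 0 were called in every setting run. The cause of these changes was not tested. The replicate block changed no other member call. There were 2 libraries a group and 1 pool number per sex and genotype, which limits precision.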
